A study of Mus musculus with 12 samples.

Results

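Gas5, Snhg1, Snhg3, Snhg5, Snhg6, Snhg8, Snhg12 and Snhg15 are non-coding genes that carry small nucleolar RNAs (snoRNAs) in their introns, and their transcripts are known targets of nonsense-mediated decay (NMD). These 8 genes were chosen by name, not by a rule on any measured value, from the 51467 genes of the count table. Earlier results of these data were known when they were chosen. Their levels were followed in mouse embryonic stem cells (ESCs), kept naive with LIF and the inhibitors PD0325901 and CHIR99021 (2i), and in epiblast-like cells (EpiLCs) collected about 56 h after LIF and 2i had been withdrawn. The cells were a single mouse ESC line, a V6.5 derivative with mCherry and GFP reporters for a pair of microRNA clusters, and no group carried a further genetic change. All cultures, ESC and EpiLC alike, received 500 µM of the uridine analogue 4-thiouridine (4sU) for 30 min, after which RNA labelled in the pulse was captured (4sU libraries, nascent RNA) and the unselected RNA was depleted of ribosomal RNA (total libraries). With 3 libraries for each cell type and assay there were 12 in all.

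A snoRNA host gene makes its product from introns. Once the host transcript is spliced, the excised intron is trimmed down to the snoRNA, which guides chemical modification or cleavage of ribosomal RNA: box C/D snoRNAs direct ribose methylation and box H/ACA snoRNAs direct pseudouridylation. The spliced exons are left over. In the non-coding hosts these exons hold only short reading frames, so that a ribosome that starts on them stops ahead of exon junctions, and the NMD factor UPF1 then leads to decay of the RNA. Many hosts, like ribosomal protein genes, start transcription within a run of pyrimidines.

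The members lie on 6 chromosomes (mm10, 1-based positions of the deposited table). Gas5 (ENSMUSG00000053332.13, chr1:161034607-161038539, plus strand) has 851 exonic bases and 10 annotated snoRNA genes within its introns, and Snhg1 (ENSMUSG00000108414.1, chr19:8723475-8726443, plus strand), first described as the host of snoRNA U22, has 865 exonic bases and 6. Snhg3 (ENSMUSG00000085241.7, chr4:132351934-132352933, minus strand, 581 exonic bases) is the host of the H/ACA snoRNA U17, annotated as Snora73a and Snora73b. Snhg12 (ENSMUSG00000086290.8, chr4:132308678-132311024, plus strand, 1363 exonic bases) lies on the same chromosome. Snhg5 (ENSMUSG00000097195.9, chr9:88521050-88522929, minus strand, 1045 exonic bases) is the U50 host and Snhg6 (ENSMUSG00000098234.7, chr1:9941959-9944118, minus strand, 979 exonic bases) the U87 host. Snhg8 (ENSMUSG00000104960.1, chr3:123507552-123508404, minus strand, 604 exonic bases) holds Snora24, and Snhg15 (ENSMUSG00000085156.7, chr11:6527899-6528746, minus strand, 675 exonic bases) holds Snora9, which overlaps its counted exons. The annotated exons were short, with a median of 858 bases against 3056 for all genes kept in the fit and 1764 for the long non-coding genes among them.

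The start sites of 7 members are shown for the pyrimidine run and the TATA letters that several of them share. Each window runs from 40 bases before to 30 bases from the annotated RefSeq start (build GRCm38.p6, the same assembly as mm10), 5′ to 3′ on the strand of the gene, and the capitals mark the longest run of C and T that reaches within 5 bases of the start. RefSeq gave Gas5 a pair of starts, printed as upstream (6 bases before the 5′ end of the counted gene) and downstream (559 bases inside it), and Snhg6 was not in this table.
Gas5 upstream start, chr1:161034561-161034630, plus strand: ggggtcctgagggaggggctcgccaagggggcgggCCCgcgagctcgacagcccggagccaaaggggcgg
Gas5 downstream start, chr1:161035126-161035195, plus strand: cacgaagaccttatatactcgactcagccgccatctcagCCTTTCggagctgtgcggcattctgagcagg
Snhg1, chr19:8723447-8723516, plus strand: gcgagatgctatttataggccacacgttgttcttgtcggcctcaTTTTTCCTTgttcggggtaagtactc
Snhg3, chr4:132353657-132353726, minus strand: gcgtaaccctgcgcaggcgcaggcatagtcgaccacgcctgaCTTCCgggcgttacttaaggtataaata
Snhg5, chr9:88522868-88522937, minus strand: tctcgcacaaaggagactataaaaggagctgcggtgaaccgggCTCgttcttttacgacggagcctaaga
Snhg8, chr3:123508307-123508376, minus strand: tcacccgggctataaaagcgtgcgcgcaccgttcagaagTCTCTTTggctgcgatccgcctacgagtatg
Snhg12, chr4:132308638-132308707, plus strand: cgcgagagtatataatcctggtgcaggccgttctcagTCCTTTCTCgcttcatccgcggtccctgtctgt
Snhg15, chr11:6528731-6528800, minus strand: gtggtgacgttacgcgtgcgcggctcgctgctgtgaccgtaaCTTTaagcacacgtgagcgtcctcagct
A run of at least 5 pyrimidines was present at the downstream start of Gas5 and at the starts of Snhg1, Snhg3, Snhg8 and Snhg12. Such a run was present at 32.9% of all 32851 promoter rows of the table. The runs of Snhg1 and Snhg3 begin 4 and 2 bases after the annotated start, and the others include it. A start at C followed by 4 pyrimidines occurred at the downstream start of Gas5 and at Snhg8, and in 2.51% of all rows. The letters TATA, searched on the strand of the gene in the 40 bases before the start, occurred at the downstream start of Gas5 and at Snhg1, Snhg5, Snhg8 and Snhg12, and in 7.63% of all rows. The upstream start of Gas5 had none of these, its run being 3 bases long. These matches describe the letters only. The RefSeq start of Snhg3 lies 753 bases upstream of the 5′ end of the counted gene, so the counted exons of Snhg3 do not reach this start.

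All 8 members passed the filter of at least 3 CPM (counts scaled to a common library total) in at least 3 libraries that kept 14731 genes, and the lowest single count was 144, for Snhg15 in EpiLC total RNA. They were among the most strongly represented genes in nascent RNA. Together they took 0.533% ± 0.055 of all reads in ESC 4sU libraries and 0.534% ± 0.0097 in EpiLC 4sU libraries, but 0.0703% ± 0.0037 in ESC total and 0.0759% ± 0.0013 in EpiLC total libraries (SD, n = 3 each). Per kilobase of exon, the members ranked between percentiles 97.8 and 99.8 of the kept genes in ESC 4sU libraries and between 96.2 and 99.8 in EpiLC 4sU libraries. In total RNA the percentiles ran from 77.9 to 98.9 in ESC and from 74.99 to 98.9 in EpiLC.

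Values for single members are given next as TMM-scaled CPM (TMM, the trimmed mean of M values, corrects for composition), in the order of replicates 1, 2 and 3. Gas5, whose name (growth arrest specific) refers to its accumulation in arrested cells, read 1282, 1544 and 1476 in ESC 4sU libraries and 1351, 1379 and 1299.8 in EpiLC 4sU libraries. Its total RNA values were 272, 284 and 272 in ESC and 246, 248 and 239.9 in EpiLC. The cell types overlapped in nascent RNA, while in total RNA every EpiLC library was below every ESC library. Snhg1 gave 1002, 1214 and 1330.0 (ESC) and 1148, 1144 and 1093 (EpiLC) in the 4sU libraries. In total RNA its values were 159.7, 148 and 135 in ESC and 179, 178 and 175 in EpiLC. Nascent Snhg1 overlapped between cell types, and its EpiLC total libraries all lay above the ESC ones. Snhg3 measured 369, 444 and 448 in ESC 4sU and 432, 420.0 and 399.7 in EpiLC 4sU libraries, and in total RNA 57.8, 58.9 and 40.3 (ESC) and 51.7, 49.7 and 45.7 (EpiLC). Its groups overlapped in both assays, with ESC total replicate 3 the lowest of all.

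Snhg5 had nascent values of 698, 961 and 819.7 in ESC and 964, 1012 and 1009 in EpiLC. Total Snhg5 was 106, 108 and 84.6 in ESC and 118, 123 and 129.6 in EpiLC. EpiLC libraries were the higher ones in both assays without overlap, although the nearest nascent libraries were separated by under 1%. Snhg6 went the other way. It read 321, 405 and 388 in ESC 4sU and 317, 302 and 292 in EpiLC 4sU libraries, and 82.1, 82.7 and 74.9 in ESC total and 60.9, 62.5 and 57.3 in EpiLC total libraries. Every EpiLC library was below every ESC library of the same assay. Snhg8 stood at 177, 218 and 236 in ESC and 251, 239 and 238 in EpiLC nascent RNA. For total RNA the values were 49.1, 45.5 and 44.2 (ESC) and 58.1, 57.9 and 54.8 (EpiLC), so that EpiLC was the higher group in both assays, by under 1% between the nearest nascent libraries.

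Snhg12 gave 405, 487 and 522 in ESC and 492, 448 and 425 in EpiLC 4sU libraries, with overlap. Its total RNA read 60.5, 58.7 and 47.0 in ESC and 61.5, 62.8 and 61.0 in EpiLC, where the EpiLC libraries were above the ESC ones by a narrow margin and ESC replicate 3 stood lowest. Snhg15 was the least abundant member, at 88.1, 98.9 and 130.2 in ESC and 70.7, 60.8 and 62.0 in EpiLC 4sU libraries. In total RNA Snhg15 read 19.6, 19.1 and 18.4 in ESC and 16.1, 14.1 and 15.3 in EpiLC. Both assays placed all EpiLC libraries of Snhg15 below all ESC libraries. For each member and in both cell types, each 4sU library exceeded each total library: the lowest 4sU value was 3.61 to 6.69 times the highest total value in ESC, and 3.79 to 7.74 times in EpiLC.

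**Figure D1:**
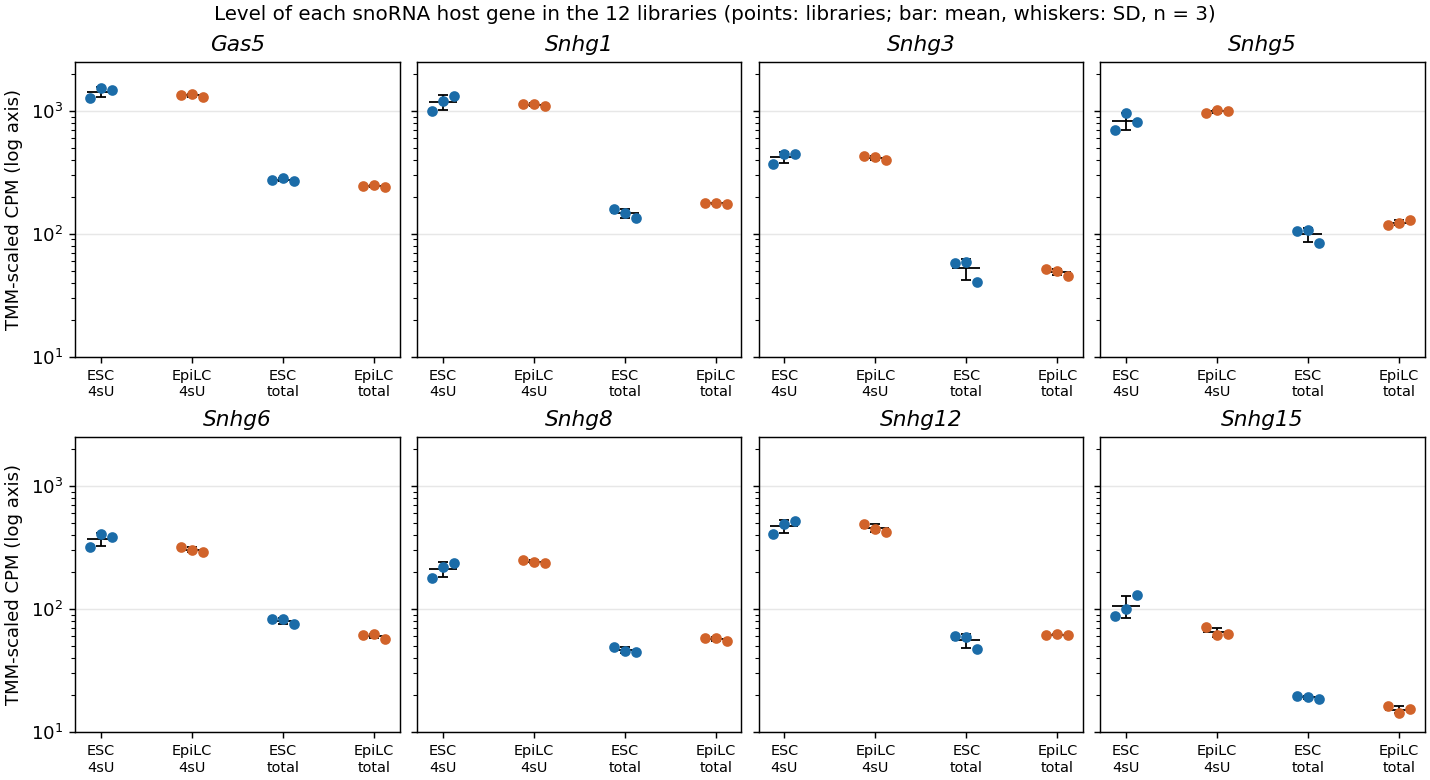
TMM-scaled CPM (log axis) of each of the 8 host genes in the 12 libraries, with points for libraries and bars for the mean ± SD of 3. In every panel the 4sU points lie above the total points by a wider gap than any separation between ESC (blue) and EpiLC (orange).

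Levels were compared between members per kilobase of counted exon (TMM-scaled CPM per kb, mean ± SD, n = 3). These lengths include bases shared with snoRNA genes, 328 in Snhg12, 159 in Snhg3, 133 in Snhg15 and 119 in Snhg1. How reads in those bases were assigned was not examined, so the levels of these members may be affected. In ESC 4sU libraries Gas5 led with 1685 ± 159.8, followed by Snhg1 with 1367 ± 193, Snhg5 with 791 ± 126 and Snhg3 with 723 ± 76.3. Snhg6, Snhg8 and Snhg12 sat close together at 379 ± 45.2, 348 ± 49.9 and 346 ± 44.2, within one another's spread, as were Snhg5 and Snhg3. Snhg15 was lowest at 157 ± 32.3. Total RNA of ESC kept Gas5 (324 ± 8.50) and Snhg1 (171 ± 14.1) at the top, and Snhg5, Snhg3, Snhg6 and Snhg8 then had means between 76.6 and 94.95. Snhg12 (40.6 ± 5.38) and Snhg15 (28.2 ± 0.934) closed the order. EpiLC total RNA had Gas5 at 287 ± 4.98, Snhg1 at 205 ± 2.51 and Snhg5 at 118 ± 5.39 at the top, and Snhg6 at 61.5 ± 2.76, Snhg12 at 45.3 ± 0.683 and Snhg15 at 22.5 ± 1.46 at the bottom.

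Relative stability, log2 of total over 4sU level, asks how much of an RNA is present for the amount made in the pulse. The scaling sets each library against itself, so the measure is relative, and the 4sU and total libraries also differed in selection and depth. All 8 members were lower in total than in 4sU RNA in both cell types by limma-voom (calls required an adjusted p below 0.05 together with a log2 difference beyond 1 in size). Among all genes kept 26.8% were called lower in ESC and 23.3% in EpiLC, and among the 879 long non-coding genes 84.5% and 78.3%. The share of members called was thus above that of all genes and near that of long non-coding genes, to which they belong. The median over members was −2.71 in ESC and −2.56 in EpiLC, beside 0.03 and 0.15 for all genes, 0.30 and 0.37 for protein-coding genes, and −2.88 and −2.33 for long non-coding genes. Within the long non-coding genes the members ranked from percentile 43.2 to 66.7 in ESC and from 22.3 to 57.6 in EpiLC.

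Snhg12, Snhg5, Snhg3 and Snhg1 had the lowest relative stability in ESC. Snhg12 read −2.74, −3.05 and −3.47 in the 3 ESC pairs of same-numbered libraries, and the fitted value was −3.08 (SE 0.11, adjusted p = 7.87e-12), an 8.44-fold lower level in total RNA. Snhg5 gave −2.73, −3.16 and −3.28, with a fitted value of −3.05 (SE 0.11, adjusted p = 1.05e-11). For Snhg3 the pairs stood at −2.67, −2.91 and −3.47 and the fit at −3.001 (SE 0.12, adjusted p = 2.67e-11). These members did not differ beyond their spread. Snhg1, with −2.65, −3.03 and −3.30, had a fitted value of −2.99 (SE 0.09, adjusted p = 3.11e-12). Snhg15 and Gas5 came next, with pairs of −2.17, −2.37 and −2.82 and a fit of −2.44 (SE 0.12, adjusted p = 2.39e-10) for Snhg15. Gas5 varied least, at −2.24, −2.44 and −2.44, and was fitted at −2.37 (SE 0.07, adjusted p = 2.46e-12). Snhg6 and Snhg8 were the least depleted hosts in total RNA. Snhg6 had pairs of −1.97, −2.29 and −2.37 and a fit of −2.21 (SE 0.09, adjusted p = 2.46e-11), and Snhg8 had −1.85, −2.26 and −2.42 and −2.17 (SE 0.10, adjusted p = 6.53e-11), a 4.50-fold lower level. The ranges of neighbours overlapped at all 7 steps of the ESC order, but this leaves out that members were read in the same libraries. Within each same-numbered pair Snhg15 lay above Snhg1, the widest step (0.54 between their means), and Snhg6 lay above Gas5. At the other steps the order was not the same in every pair. In all 8 members pair 1 was the highest of the ESC pairs and pair 3 the lowest, with an SD over the pairs of 0.12 to 0.41.

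In EpiLC the pairs lay closer together (SD 0.019 to 0.11). Snhg3 was lowest, with −3.06, −3.08 and −3.13 and a fitted value of −3.09 (SE 0.13, adjusted p = 6.43e-11). Snhg5 followed with −3.02, −3.05 and −2.96 and −3.01 (SE 0.11, adjusted p = 2.92e-11), just above Snhg3 without overlap. The pairs of Snhg12 were −3.002, −2.83 and −2.80 and overlapped those of Snhg5, with a fit of −2.88 (SE 0.11, adjusted p = 3.88e-11). Snhg1 came at −2.68, −2.68 and −2.64, fitted at −2.67 (SE 0.10, adjusted p = 2.1e-11), and Gas5 at −2.46, −2.48 and −2.44, fitted at −2.46 (SE 0.07, adjusted p = 5.4e-12). These hosts and Snhg6, the next in order, were each separated from their neighbours. Snhg6 had −2.38, −2.27 and −2.35 and a fit of −2.33 (SE 0.09, adjusted p = 5.34e-11). Snhg8 with −2.11, −2.04 and −2.12 and Snhg15 with −2.14, −2.11 and −2.02 closed the order and overlapped, with fits of −2.09 (SE 0.10, adjusted p = 2.06e-10) and −2.09 (SE 0.15, adjusted p = 1.26e-08). Snhg8 and Snhg6 were among the 3 least depleted members in both cell types, and Snhg3, Snhg5, Snhg12 and Snhg1 were the 4 most depleted in both.

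**Figure D2:**
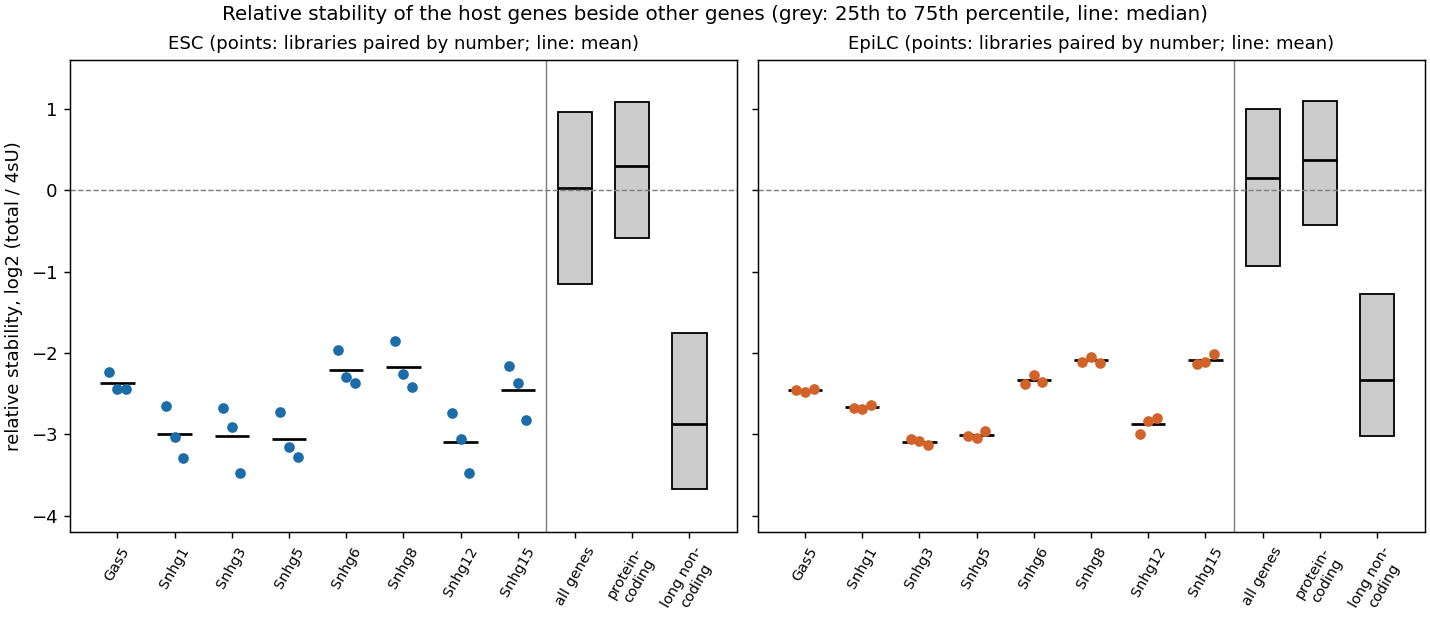
Relative stability (log2 of total over 4sU) of each host gene in ESC and EpiLC, with a point for each pair of same-numbered libraries and a line for the mean. Grey boxes give the 25th to 75th percentile and the median of all genes, protein-coding genes and long non-coding genes. Every member point lies below the box of protein-coding genes, and the members' means fall between −2.09 and −3.09.

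Several features of the counted exons stood beside this contrast. Between 25.8% (Snhg8) and 72.8% (Snhg3) of the counted exonic bases of a member lie in an intron of another annotated transcript of the same gene, with 49.5% in Gas5 and 30.1% in Snhg1, so that reads from unspliced RNA can be counted as exonic. Counted exons of Snhg12 share 328 bases with annotated snoRNA genes, those of Snhg3 share 159, those of Snhg15 share 133 and those of Snhg1 share 119. On the opposite strand Gm17300 overlaps 85.5% of the exonic bases of Snhg3, with 2 to 233 reads in a library, and Mcmdc2 overlaps 12.97% of those of Snhg6, with 2 to 82 reads. The counting used strand. Uridine, which 4sU replaces, made up 20.5% to 31.6% of the annotated transcripts of the members, around the median of 25.4% for other spliced long non-coding transcripts. The part of these features in the contrast was not tested.

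The annotated transcripts were also read for the arrangement that NMD acts on. A stop codon over 50 nt upstream of the last exon junction, for the longest reading frame from an ATG, was present in 11 of the 19 spliced transcripts of the members (57.9%), and in 22.7% of 11034 other spliced long non-coding transcripts. These 11 belong to Gas5, Snhg1, Snhg6, Snhg8 and Snhg12. Over all 19 transcripts the longest frame from an ATG had 81 codons, in Gas5 transcripts that lack this arrangement. Among the 11 that have it, the longest had 56 codons, in Snhg6. No transcript of Snhg3, Snhg5 or Snhg15 had the arrangement. Transcripts of a gene share exons, so this count is a description.

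The change from ESC to EpiLC was tested in nascent RNA (EpiLC 4sU against ESC 4sU), in total RNA (EpiLC total against ESC total, the mRNA change of the study) and in relative stability (the interaction of cell type and assay). None of the 8 members was called in any of these 3 comparisons, which called 25.5%, 27.6% and 1.54% of all genes kept. By unadjusted p under 0.05 there were 4, 6 and 1 members, beside 58.1%, 66.8% and 22.9% of all genes, and edgeR's quasi-likelihood test and DESeq2 also called none. The median of the members was −0.049 for nascent RNA, 0.031 for total RNA and 0.058 for relative stability, against −0.086, 0.020 and 0.11 for all genes. The p-values and intervals rest on the spread between libraries of the same group, which the study calls biological replicates. Each gene had 1 estimate of this spread, pooled over all 12 libraries. It does not show that ESC pairs varied more than EpiLC pairs. In bulk RNA fewer cells of a type and less RNA per cell cannot be told apart.

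By the adjusted p alone, with no limit on size, 3 members passed in nascent RNA (52.5% of all genes did) and 4 in total RNA (63.5%). Snhg15 had the largest nascent change, −0.68 (SE 0.13, adjusted p = 0.000418), with a 95% interval of −0.95 to −0.41. Its change in total RNA was −0.34 (SE 0.15, adjusted p = 0.0603). This total change passed with median-of-ratios scaling (0.0414), edgeR (0.0469), DESeq2 (0.0351) and sample quality weights (0.0020). It also passed without the low-count filter (0.0443) and with a filter at 1 CPM (0.0401), but not with library totals (0.152). With 1 library left out it passed without ESC 4sU replicate 1 (0.0348) or 3 (0.0090), and in no other such fit (highest 0.195). Snhg6 was lower in EpiLC in both assays, at −0.28 (SE 0.09, adjusted p = 0.0156) in nascent and −0.41 (SE 0.09, adjusted p = 0.00153) in total RNA. Snhg5 was higher in both, with 0.28 (SE 0.11, adjusted p = 0.0406) and 0.32 (SE 0.12, adjusted p = 0.0282). In Snhg8 total RNA was higher by 0.30 (SE 0.10, adjusted p = 0.0179), and the nascent value was 0.22 (SE 0.09, adjusted p = 0.0651). Snhg1 was higher in total RNA, 0.26 (SE 0.10, adjusted p = 0.0296), beside a nascent value of −0.055 (SE 0.09, adjusted p = 0.64). These differences were all under 2-fold, the smallest fold that could be called. When 1 library was left out at a time, total Snhg6 and nascent Snhg15 kept an adjusted p below 0.05 in all 12 fits (highest 0.0118 and 0.0064). Total Snhg1 lost it in 8 of the 12 fits (all but those without ESC 4sU replicates 1 or 3, EpiLC 4sU replicate 2 or ESC total replicate 1), with the highest value, 0.0805, without ESC total replicate 3. Total Snhg5 lost it without ESC total replicate 3, EpiLC total replicate 2 or EpiLC total replicate 3 (highest 0.0947), and total Snhg8 without ESC total replicate 2, EpiLC total replicate 1 or EpiLC total replicate 2 (highest 0.0576). Nascent Snhg5 lost it without ESC 4sU replicate 1, where the change fell to 0.14 (adjusted p = 0.251), or without EpiLC 4sU replicate 2 or 3. Nascent Snhg6 lost it in 6 fits, those without ESC 4sU replicates 2 or 3, ESC total replicate 1 or any EpiLC 4sU replicate, and its change was −0.17 (adjusted p = 0.187) without ESC 4sU replicate 2.

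Gas5, Snhg3 and Snhg12 passed in neither assay in this fit. In total RNA Gas5 passed by adjusted p with median-of-ratios scaling (0.0240), with DESeq2 (0.0090), with sample quality weights (0.00486), without the low-count filter (0.0178) and with a filter at 1 CPM (0.0316). It also passed without ESC 4sU replicate 1 (0.0115), 2 (0.0318) or 3 (0.0256) and without ESC total replicate 3 (0.0451). Total Snhg3 passed with quality weights (0.00975) and without ESC total replicate 3 (0.0299), and nascent Gas5 without ESC 4sU replicate 1 (0.0153). Gas5 had −0.089 (SE 0.07, adjusted p = 0.314) in nascent and −0.17 (SE 0.07, adjusted p = 0.0542) in total RNA, with 95% intervals of −0.24 to 0.064 and −0.34 to −0.014. For Snhg3 the values were −0.0039 (SE 0.12, adjusted p = 0.981) and −0.093 (SE 0.13, adjusted p = 0.553), with intervals of −0.26 to 0.25 and −0.38 to 0.19. Snhg12 stood at −0.043 (SE 0.10, adjusted p = 0.755) and 0.16 (SE 0.12, adjusted p = 0.255), with intervals of −0.27 to 0.18 and −0.092 to 0.40. The intervals of these 3 members leave out a 2-fold change in either direction.

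No member passed in relative stability by adjusted p alone, which 4.60% of all genes did. The 95% interval of Snhg1 left out 0, and those of the other 7 members held it. Snhg15 had the highest estimate, 0.35 (SE 0.19, adjusted p = 0.312), with a 95% interval of −0.069 to 0.76, followed by Snhg1 with 0.32 (SE 0.13, adjusted p = 0.175) and 0.031 to 0.61. The estimates moved with single libraries. Without ESC 4sU replicate 3, Snhg15 was at 0.12 and Snhg1 at 0.15, and without ESC 4sU replicate 1 they were at 0.48 and 0.45, where Snhg1 alone passed by adjusted p (0.0307). Snhg12 gave 0.20 (SE 0.16, adjusted p = 0.484), with 0.039 without ESC 4sU replicate 3, Snhg8 0.078 (SE 0.14, adjusted p = 0.788) and Snhg5 0.037 (SE 0.16, adjusted p = 0.92). Below 0 were Gas5 at −0.085 (SE 0.10, adjusted p = 0.674), Snhg3 at −0.09 (SE 0.18, adjusted p = 0.813) and Snhg6 at −0.13 (SE 0.13, adjusted p = 0.604). The lowest Snhg6 value, −0.26, came without ESC 4sU replicate 2, and the highest, −0.0094, without ESC 4sU replicate 1. Over all 8 members the 95% intervals ran from −0.47 to 0.76, inside a 2-fold change.

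**Figure D3:**
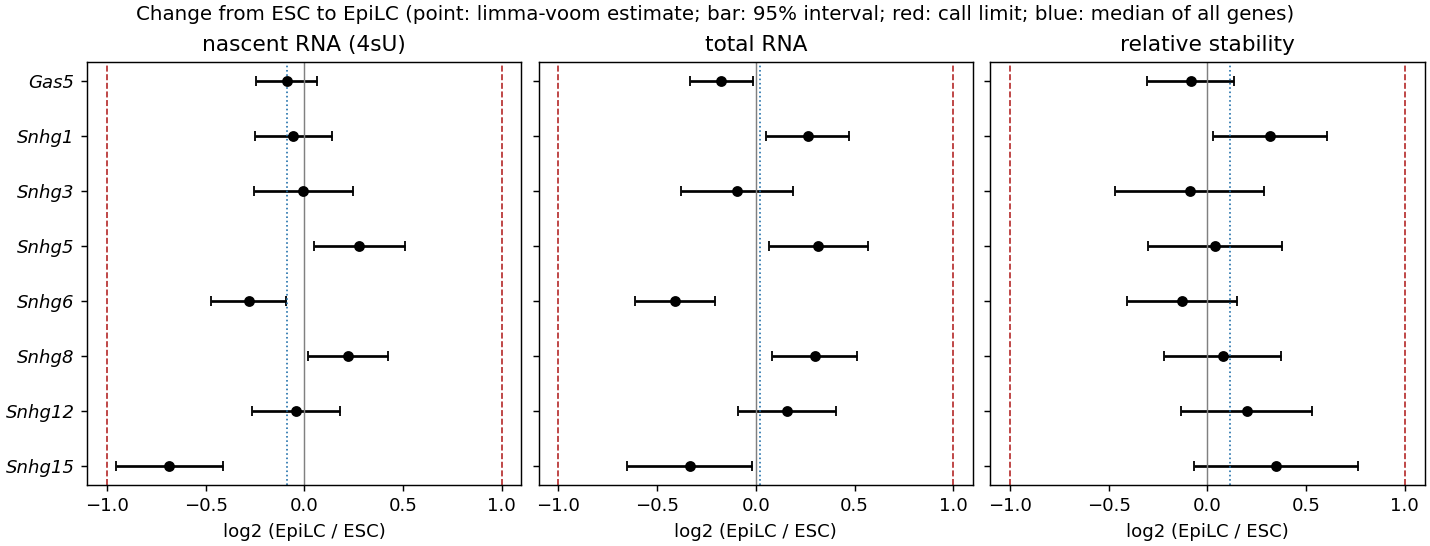
Log2 change from ESC to EpiLC in nascent RNA, total RNA and relative stability, with the limma-voom estimate and its 95% interval for each host gene. All 24 intervals stay inside the dashed call limits at −1 and 1, and those of Snhg15 and Snhg6 in nascent RNA lie below 0.

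The host exons were then set beside the snoRNA genes they contain. The annotation held 30 snoRNA genes on the strand of a member and touching it, of which 6 had no read and 20 were kept in the fit, in 5 hosts. Of those with no read, Snora44, Snora61 and Snora9 lie wholly within counted host exons. The entries of Snord80 and Snora16a without reads overlap a second entry of the same name. How reads in such shared bases were assigned was not examined, so a count of 0 does not show that a snoRNA was absent. A read inside an intron may come from the snoRNA or from unspliced host RNA, and how well either library type recovered short mature snoRNAs was not measured. The interval with the most reads is printed for each of the 5 hosts with a kept interval (GENCODE M21, GRCm38), to show what the host makes. Capitals mark TGATGA within the first 20 bases and the last CTGA within the final 20 (the box C and box D letters) or, where no CTGA was found there, the last ACA within the final 10.
Gm22357 in Gas5, chr1:161036057-161036139, plus strand: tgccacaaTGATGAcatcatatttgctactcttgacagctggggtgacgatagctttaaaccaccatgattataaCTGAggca
Snord22 in Snhg1, chr19:8725866-8725991, plus strand: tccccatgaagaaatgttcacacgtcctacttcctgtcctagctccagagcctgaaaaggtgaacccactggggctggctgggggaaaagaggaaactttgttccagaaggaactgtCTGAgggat
Snora73b in Snhg3, chr4:132352322-132352526, minus strand: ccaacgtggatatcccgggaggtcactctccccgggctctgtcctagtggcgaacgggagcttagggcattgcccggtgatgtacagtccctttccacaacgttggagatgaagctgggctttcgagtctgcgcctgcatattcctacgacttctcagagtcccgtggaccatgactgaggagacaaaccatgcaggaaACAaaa
Snord87 in Snhg6, chr1:9942463-9942549, minus strand: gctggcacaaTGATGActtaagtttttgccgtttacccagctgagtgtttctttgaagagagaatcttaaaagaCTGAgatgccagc
Snora24 in Snhg8, chr3:123507937-123508066, minus strand: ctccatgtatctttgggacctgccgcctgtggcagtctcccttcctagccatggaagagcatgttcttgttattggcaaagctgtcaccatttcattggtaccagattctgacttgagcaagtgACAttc
Snord22 had the CTGA letters but not TGATGA in these windows.

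Snora73b, 1 of the annotated U17 snoRNAs in Snhg3, had the opposite ratio to its host. It read 161, 176 and 186 TMM-scaled CPM in ESC 4sU and 1659, 1547 and 1427 in ESC total libraries. In EpiLC the values were 153, 159 and 155 (4sU) and 1286, 1312 and 1259.8 (total). All total libraries lay far above all 4sU libraries, with a fitted relative stability of 3.15 (SE 0.075, adjusted p = 3.34e-13) in ESC and 3.05 (SE 0.078, adjusted p = 1.06e-12) in EpiLC. On the log2 scale it exceeded the exons of Snhg3 by 6.15 and 6.14. Snora73a, the other U17 entry of this host, named after its values were seen, did not have the opposite ratio. It was called lower in total RNA, at −2.95 in ESC and −3.39 in EpiLC, near its host. Of its 205 bases, 159 lie in counted exons of Snhg3. Snord22, the U22 snoRNA in Snhg1, was the other interval called higher in total RNA, in EpiLC. Its fitted value was 1.40 (SE 0.22, adjusted p = 5.14e-05) there and 0.71 (SE 0.22, adjusted p = 0.00754) in ESC. Of the 126 bases of Snord22, 59 lie in counted exons of Snhg1.

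Of the 20 intervals 17 were called lower in total than in 4sU RNA in ESC and 15 in EpiLC. Among all genes kept the shares were 26.8% and 23.3%. In each cell type 13 intervals lay below their own host exons. Gm22357, in Gas5, varied strongly between total libraries. Its TMM-scaled CPM was 61.6, 64.2 and 379 in ESC total and 386, 264 and 117 in EpiLC total libraries, against 276, 338 and 363 and 321, 328 and 326 in the 4sU libraries. ESC total replicate 3 stood apart from the other ESC total libraries and the EpiLC total libraries were spread widely, while the Gas5 exons differed little between the same libraries. Snora24 in Snhg8, a guide for pseudouridylation, had a relative stability of −1.11 in ESC and −0.64 in EpiLC, above its host. Snord87 in Snhg6 had −2.66 and −2.20, near its host. None of the 20 intervals was called in nascent RNA, total RNA or relative stability between ESC and EpiLC, beside 25.5%, 27.6% and 1.54% of all genes kept.

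**Figure D4:**
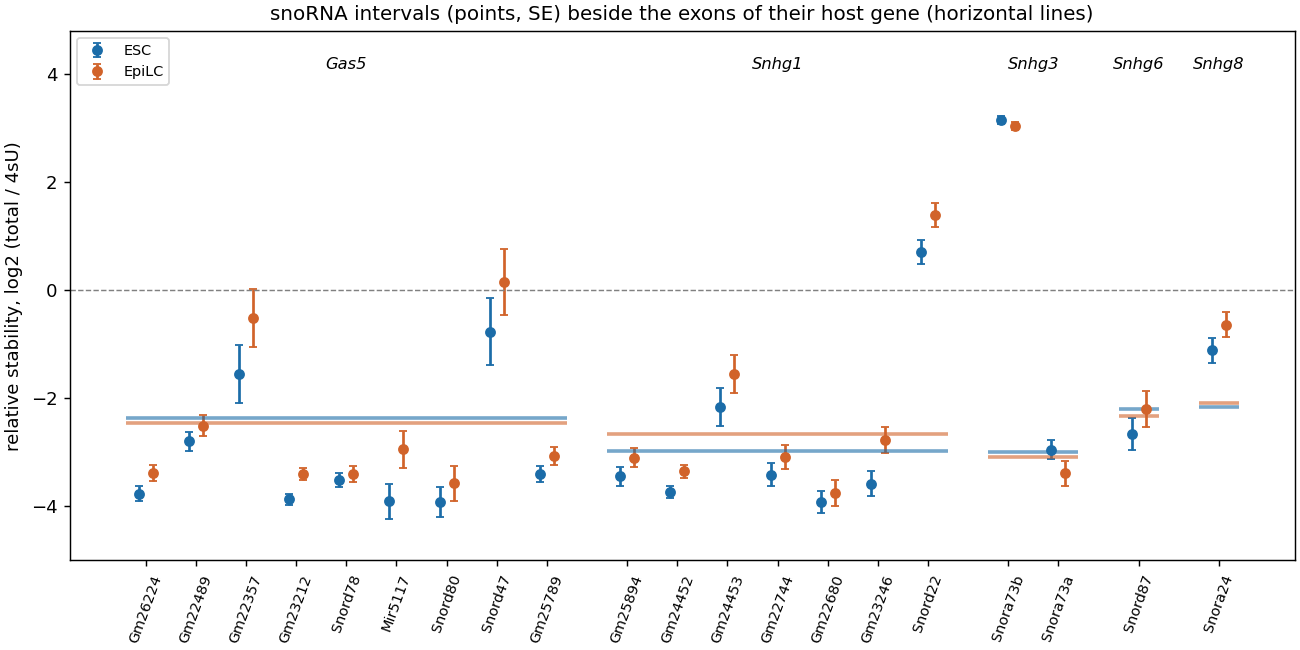
Relative stability (log2 of total over 4sU, with SE) of the 20 snoRNA intervals kept in the fit, grouped by host gene, in ESC (blue) and EpiLC (orange), with horizontal lines at the value of the host exons. Snora73b stands at 3.15 and 3.05, while most intervals of Gas5 and Snhg1 lie below the lines of their hosts.

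Related genes were taken from lists. Of 13 other non-coding snoRNA hosts 10 were kept. Of these, 7 were called lower in total than in 4sU RNA in ESC and 7 in EpiLC, with medians of −1.85 and −1.78. Among all genes kept 26.8% and 23.3% were called lower, and among long non-coding genes 84.5% and 78.3%. Dancr (−2.89 in ESC, SE 0.15), Snhg17 (−2.79, SE 0.10) and Zfas1 (−2.40, SE 0.11) lay within the range of the 8 members. Snhg14, named after its values were seen, was the 1 host of this list called between cell types, with 1.99 in total and 1.72 in nascent RNA. These comparisons called 27.6% and 25.5% of all genes kept. The 30 protein-coding hosts, mostly ribosomal protein and translation factor genes, were split: 10 were called lower and 10 higher in ESC, with a median of 0.17, and 10 lower and 8 higher in EpiLC, with a median of 0.031. Of all 14731 genes kept, 3490 were called higher in ESC and 3561 in EpiLC. One protein-coding host, Eif4a2, also named after its values were seen, was lower in EpiLC total RNA by −1.09. Only unique alignments were counted, so reads from near-identical copies are lost. In ESC total RNA the mean was 11.9 TMM-scaled CPM for Rpl10 and 23.1 for Rpl21, beside 2371 for Rpl4 and 2325 for Rps3. Rpl4 and Rps3 were likewise named after their values were seen. The part of lost reads in the split of these hosts was not tested.

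The 4 other NMD targets on the list, transcription factor and stress genes with upstream reading frames or NMD-sensitive mRNAs, were all called lower in total RNA in ESC and in EpiLC, with medians of −1.23 and −1.50. Of all genes kept, 26.8% and 23.3% were called lower. Gadd45a was lowest in ESC with −2.23 (SE 0.16), then Ddit3 with −1.30 (SE 0.27) and Atf4 with −1.15 (SE 0.13). None was called in total RNA between cell types, and Gadd45b, named after its values were seen, was called higher in EpiLC nascent RNA (1.23). Among 17 NMD factors and exon junction proteins, 0 were called in total RNA, nascent RNA or relative stability between cell types, with medians of −0.044, −0.18 and 0.11. These comparisons called 27.6%, 25.5% and 1.54% of all genes kept. By adjusted p alone 63.5%, 52.5% and 4.60% of all genes passed, and so did factors named here after their values were seen. Upf1 was higher in EpiLC by 0.82 (adjusted p = 3.31e-05) in total and 0.69 (0.000924) in nascent RNA. Upf2 (−0.37, 0.000784) and Upf3b (−0.52, 0.000831) were lower in total RNA, and Dhx34 had a stability change of 0.81 (0.0200). In total RNA 10 of the 17 were below 0. Of 18 snoRNP proteins and assembly factors, Naf1, which is needed to assemble H/ACA particles, was the 1 called, higher in EpiLC by 1.28 (SE 0.09, adjusted p = 2.17e-08) in total and 1.17 in nascent RNA. The median of this list in total RNA was −0.030.

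The 4sU libraries held 3097693 to 5385644 gene reads each, the total libraries 9300845 to 21975684, and Spearman's rho between replicates was 0.970 to 0.998. The cell types matched their labels. The 7 naive markers summed to 3315 to 5301 TMM-scaled CPM in ESC libraries and 314 to 439 in EpiLC libraries, and all 7 were called lower in EpiLC total RNA. The 5 EpiLC markers summed to 91.4 to 305 in ESC and 829 to 1892 in EpiLC, and all 5 were called higher. The 7 fibroblast markers summed to 2.04 to 4.73 in ESC and 4.48 to 18.9 in EpiLC, and the 5 primitive endoderm markers to 4.98 to 14.6 and 7.55 to 15.6. Their part in the values of the host genes was not tested.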

How the data were processed

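RNA from ESCs and EpiLCs was sequenced as 4sU and total libraries, 3 per group by the labels. The authors trimmed single-end reads with cutadapt 1.14, aligned them to mm10 with STAR 2.5.3a keeping unique alignments, and counted them by strand over the exons of GENCODE M14 genes with featureCounts 1.5.3. The deposited values are raw counts per gene. Reads from near-identical copies are lost when alignments must be unique. No absolute scale was available, since all 92 spike-in sequences were at 0. Reads carried no molecular identifiers. The 95% intervals come from the fit and cover the spread between libraries.

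Names and gene types came from GENCODE M21 (51274 of 51467 IDs matched). The filter, the linear model of cell type and assay and the call rule follow the study's methods, while voom weights and TMM scaling were chosen here. The 14731 genes that reached 3 CPM in 3 or more libraries were fitted with limma-voom on TMM-scaled counts from all 12 libraries (R 4.3.3, limma 3.58.1, edgeR 4.0.16), with Benjamini-Hochberg adjustment over all genes. Calls required an adjusted p below 0.05 together with a log2 difference beyond 1 in size. The fit was tested on simulated counts with known changes in EpiLC total RNA. That test scored the changes between cell types, not total against 4sU RNA within a cell type. Tables and figures used Python 3.11.15, pandas 2.3.3 and matplotlib 3.10.9.

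The members and lists (other hosts, protein-coding hosts, NMD factors, NMD targets, snoRNP proteins and markers) were chosen with earlier results of these data known. All members were named. From each list at most 3 called genes with the largest log2 change were named, and any gene outside this rule is marked. From each host the snoRNA interval with the most reads was named, and the genes most like Gas5 by correlation. Alternatives covered scaling, filter, DESeq2 1.42.0, edgeR's quasi-likelihood test, quality weights, the call rule, replicate blocks and each library left out.

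The labels state that an extract was split into a 4sU and a total part. Deviations from the group means correlated between same-numbered ESC 4sU and ESC total libraries (r = 0.23 to 0.48), over 0.1 in all 3 pairs. Differently numbered ESC libraries reached r = 0.37 (4sU replicate 2 with total replicate 1), so these values do not settle which libraries pair. In EpiLC same-numbered libraries reached only 0.024 to 0.10, and no pair of groups from different cell types had all its pairs over 0.1. The pairs in the text are same-numbered libraries.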

Additional observations from a re-analysis of the deposited data

How the results depend on the processing

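All 8 host genes stayed called lower in total than in 4sU RNA in ESC and in EpiLC under each of the 23 alternatives, with single values between −3.30 and −1.94 in ESC and between −3.26 and −1.97 in EpiLC. Scaling by library totals shifted the median of all genes in ESC from 0.03 to −0.20, and the median of the members minus that of all genes was −2.74 under both scalings. Without the low-count filter this difference was −1.68 in ESC and −1.81 in EpiLC, beside −2.71 in EpiLC with the filter. No member was called in the changes from ESC to EpiLC under any alternative that kept the limit on size. By adjusted p alone the counts were 4 in total and 3 in nascent RNA, and over the alternatives they ran from 1 to 7 and from 1 to 4. In total RNA there were 6 with median-of-ratios scaling, 6 with DESeq2, 7 with quality weights and 3 without the filter, where Snhg1, Snhg5 and Snhg8 no longer passed. Over all genes, 9364 of 14731 passed with median-of-ratios scaling, 8844 with DESeq2 and 11165 with quality weights. Without the filter 11807 of 32144 passed. Blocking on the replicate number changed no call of a member (Snhg12 relative stability in ESC −3.08 with the number as block), while total Snhg15 went from an adjusted p of 0.0603 to 0.0491. The block on same-numbered pairs was run for relative stability and its change and altered no call there. Values near 0 changed sign. For nascent RNA, Snhg1 read 0.0015, Snhg3 0.053 and Snhg12 0.014 with median-of-ratios scaling, Snhg3 0.019 with library totals and 0.036 without the filter, and Snhg3 0.047 and Snhg12 0.0066 with DESeq2. For the change in relative stability, Snhg5 read −0.048 and Snhg8 −0.0072 with median-of-ratios scaling, −0.074 and −0.029 without the filter, and Snhg5 −0.042 with DESeq2. Without both ESC replicate 3 libraries, an alternative chosen after seeing the data, nascent Snhg1, Snhg3 and Snhg12 read 0.0061, 0.017 and 0.0062, and the stability changes of Snhg5 and Snhg8 −0.048 and −0.016. With 1 library left out, the nascent change ran from −0.19 to 0.012 for Gas5, −0.19 to 0.092 for Snhg1, −0.12 to 0.10 for Snhg3 and −0.17 to 0.092 for Snhg12. The stability change ran from −0.21 to 0.011 for Gas5, −0.25 to 0.015 for Snhg3, −0.15 to 0.17 for Snhg5 and −0.088 to 0.21 for Snhg8. The cause of these sign changes was not tested. Over all genes, the count called for the stability change was 227 in the main setting and 846 with quality weights, 354 and 528 with the number and the pair as block, 779 without both ESC replicate 3 libraries, and 69 to 658 with 1 library left out. Without the filter 32144 genes were tested and the calls rose from 4059 to 7107 (total), 3751 to 5723 (nascent), 7443 to 17534 (ESC) and 6989 to 15325 (EpiLC). By adjusted p alone the counts were 9353, 7731, 678, 11646 and 11151 for the total, nascent, stability, ESC and EpiLC comparisons. The lowest depth was 3097693 reads, in a 4sU library, and the lowest member count 144, for Snhg15 in total RNA.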

Other observations

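Likeness to Gas5 was described as Pearson's r of log2 TMM-scaled CPM over the 12 libraries, among 10173 other genes averaging 10 CPM or more. The 3 most similar genes were Rps13 (r = 0.999), a ribosomal protein of the small subunit, mt-Nd5 (r = 0.998), a mitochondrial subunit of respiratory complex I, and Dnajb9 (r = 0.998), a chaperone of the endoplasmic reticulum. The other host genes ranked from place 20 (Snhg3, r = 0.996) to place 400 (Snhg15, r = 0.976). The 12 libraries span 4sU and total RNA, and every gene depleted in total RNA shares that gap. Reads from near-identical copies were lost, and their part in these ranks was not tested. These values are a description and carry no test.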
